A study of Mus musculus with 2 samples.

Results

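The genes described here serve the red blood cell: the transcription factors Klf1 and Gata1, the membrane proteins Rhag, Epb42 and Slc4a1, and the heme enzymes Alas2 and Fech. The 7 genes were chosen by function, with the globins left out, and all 7 were found by symbol among the 17646 genes listed in the deposited tables. RNA of whole hearts of mouse embryos on a BALB/c background was sequenced at embryonic day 13.5, in 1 wild-type (WT) library and 1 library of SRSF10-/- embryos, which lack a splicing factor of the SR family. The labels give no other allele or agent, and neither the number nor the sex of the embryos behind a library. There is 1 library per genotype, so differences could not be set against replicates or tested, and higher and lower describe these libraries. Intervals in parentheses are exact 95% bounds on a read ratio. They reflect counting error alone, and PCR copies of a molecule are counted as separate reads.

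Red cell precursors in the embryo come in a primitive wave from the yolk sac, which circulates while still maturing, and a definitive wave from the fetal liver. GATA1 and KLF1 switch on the erythroid program in both, including globins, membrane proteins and the enzymes of heme synthesis. Blood held in the chambers and vessels brings such cells into a heart sample. In bulk RNA of this kind, fewer red cells and less RNA per red cell cannot be told apart.

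Uniquely mapped reads summed over the listed genes to 39.61 M (WT) and 38.89 M (knockout), and this sum is the library total used here. Srsf10 itself went from 35.3 to 1.45 RPKM (reads per kilobase of gene, scaled to the library total). Markers of the labelled tissue were abundant: 8 of 8 cardiomyocyte genes were measured, with a summed level of 16610 RPKM in the WT and 15362 in the knockout library. Actc1, cardiac actin, was the most abundant of them, Myh6 had the highest ratio (1.15-fold higher) and Tnnt2 the lowest (0.784). Y-linked genes had 2943 reads in the WT library and 7 in the knockout library, so sex and genotype cannot be told apart. Gata1 and Alas2 are X-linked, and over the 420 measured genes of the X chromosome the log2 ratio of RPKM + 1 (knockout over WT) had a median of 0.01.

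The promoters of 5 of the genes are shown because GATA1 and KLF1 are themselves among the 7, and GATA-type words stand in most of them. No promoter sequence of Slc4a1 or Fech was used here, so neither was searched. The sequences are from RefSeq (GRCm38.p6) and run 5′ to 3′ on the strand of the gene, with the last base before the start counted as -1. Capitals mark a GATA word (AGATAA or AGATAG or TGATAA or TGATAG) or a KLF word (CCNCNCCC), each searched on both strands, so TTATCA is a TGATAA of the opposite strand. Each stretch holds 150 bases, from -150 to -1, except that of Epb42, from -250 to -101.
Klf1, chr8:84901832-84901981, plus strand: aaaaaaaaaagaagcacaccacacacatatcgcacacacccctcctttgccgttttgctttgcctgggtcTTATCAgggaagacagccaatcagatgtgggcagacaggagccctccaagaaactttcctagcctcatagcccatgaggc
Gata1, chrX:7967911-7968060, minus strand: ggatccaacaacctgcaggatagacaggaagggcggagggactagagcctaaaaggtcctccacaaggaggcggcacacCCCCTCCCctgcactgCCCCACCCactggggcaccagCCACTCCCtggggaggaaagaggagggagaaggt
Rhag, chr17:40810999-40811148, plus strand: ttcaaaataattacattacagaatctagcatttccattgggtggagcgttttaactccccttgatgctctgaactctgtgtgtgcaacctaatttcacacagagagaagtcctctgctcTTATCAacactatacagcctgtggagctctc
Epb42, chr2:121036978-121037127, minus strand: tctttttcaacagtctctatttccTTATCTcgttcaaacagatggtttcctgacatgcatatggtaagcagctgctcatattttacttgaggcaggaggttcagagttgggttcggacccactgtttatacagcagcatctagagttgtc
Alas2, chrX:150547267-150547416, plus strand: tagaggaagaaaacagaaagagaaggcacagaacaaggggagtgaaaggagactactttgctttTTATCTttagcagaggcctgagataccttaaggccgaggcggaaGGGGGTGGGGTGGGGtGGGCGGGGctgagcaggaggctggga

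A GATA word was found in 4 of the 5 promoters, read over 250 bases before to 50 after the start: at -80 to -75 in Klf1, -31 to -26 in Rhag, -226 to -221 in Epb42 and -86 to -81 in Alas2. Of all 32851 mouse promoters of the same length, 29.8% hold one. The Gata1 promoter has no GATA word in this window and 3 KLF words, the first at -71 to -64. Alas2 has 4 KLF words between -42 and -19, of which the first 3 overlap one another, and is the only one of the 5 with both kinds. KLF words occur in 49.5% of all promoters and both kinds together in 10.2%. A word in a window is a description of these letters and not a measured binding site.

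The regulators and 2 of the membrane genes were present at a low level and were more abundant in the knockout library, the abundant membrane gene Slc4a1 was nearly level, and the first enzyme of heme synthesis, Alas2, was less abundant. Klf1 is the Krüppel-like factor that binds CACC-type promoter elements, those of adult beta globin among them. It had 32 reads (0.527 RPKM) in the WT and 48 (0.805) in the knockout library, 1.53-fold higher (0.957 to 2.47). The interval reaches below 1, so the difference in Klf1 was not resolved at this depth. Gata1, the zinc finger factor of red cells, megakaryocytes and mast cells, had 24 reads (0.319 RPKM) and 58 (0.784). That is 2.46-fold higher (1.51 to 4.14) and the highest ratio among the 7 genes. Reads of both factors summed to 56 in the WT and 106 in the knockout library, 1.93-fold higher (1.38 to 2.72).

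**Figure D1:**
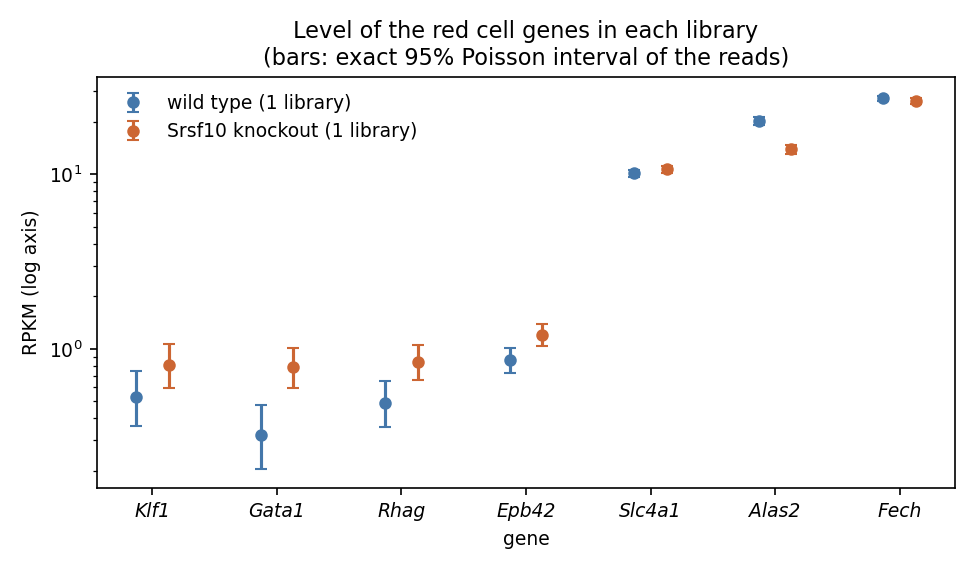
RPKM (log axis) of the 7 genes in the WT (blue) and knockout (orange) library, 1 library each; bars are exact 95% Poisson intervals of the reads. Klf1, Gata1, Rhag and Epb42 lie near or below 1 RPKM in the WT library and higher in the knockout, while Alas2 goes from 20.2 to 14.0 RPKM.

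Membrane genes fell into a scarce and an abundant kind. Rhag, the Rh-associated glycoprotein that carries ammonium or gas across the red cell membrane and assembles the Rh complex, had 45 reads (0.486 RPKM) in the WT library and 76 (0.836) in the knockout, 1.72-fold higher (1.17 to 2.55). Epb42, protein 4.2, which ties the anion exchanger to the ankyrin-based skeleton, had 140 reads (0.859 RPKM) and 193 (1.21), 1.40-fold higher (1.12 to 1.76). Both were higher in the knockout library beyond counting error. Slc4a1 encodes that anion exchanger, known as band 3, which swaps chloride for bicarbonate. It had 1833 reads (10.2 RPKM) and 1886 (10.7), a ratio of 1.05 (0.982 to 1.12) whose interval holds 1. In summed reads the 3 membrane genes were 1.09-fold higher (1.02 to 1.16), a value led by Slc4a1.

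Alas2, the erythroid 5-aminolevulinate synthase that starts and limits heme synthesis in red cells, had 1630 reads (20.2 RPKM) in the WT and 1106 (14.0 RPKM) in the knockout library. It was 1.45-fold lower (1.34 to 1.56), and of the 7 genes it was the only one whose interval lay below 1. Fech, ferrochelatase, which places iron in protoporphyrin as the last step of the pathway in every heme-making cell, was nearly level, with 3143 reads (27.4 RPKM) and 2979 (26.4), a ratio of 0.966 (0.918 to 1.02). Summed, these enzymes were 1.15-fold lower (1.10 to 1.196), with Fech supplying most of the reads. Of the annotated exon bases of Alas2, 372 of 2403 (15.5%) are also covered by Apex2 or Mir3620 on the opposite strand, and since the use of strand is not given in the sources used here, reads of that stretch cannot be assigned. Apex2, a DNA repair nuclease, had 685 reads (3.65 RPKM) in the WT and 629 (3.41) in the knockout library, a ratio of 0.935 (0.838 to 1.04). None of the other 6 genes shares exon bases with another annotated gene. Of the 31-base words of the longest transcript, 15.6% for Alas2, 14.1% for Fech, 3.68% for Rhag and 1.84% for Epb42 also occur in transcripts of other genes, and none do for Klf1, Gata1 and Slc4a1.

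Per gene length, the order of levels in the WT library was Fech, Alas2, Slc4a1, Epb42, Klf1, Rhag and Gata1. In the knockout library Rhag stood before Klf1 and the rest of the order was unchanged. The steps from Fech to Alas2, from Alas2 to Slc4a1 and from Slc4a1 to Epb42 exceeded the counting intervals in both libraries. The intervals of Epb42 and Klf1 touched in both. Among Klf1, Rhag and Gata1 the intervals of the levels overlapped in each library: in the WT from 0.360 to 0.743 RPKM for Klf1, 0.354 to 0.650 for Rhag and 0.204 to 0.474 for Gata1. Slc4a1 thus stood at over 10 RPKM in both libraries, while its partner Epb42 was near 1.

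Coverage, the part of a gene's length that reads reach, in the authors' deposited values, moved with the read numbers for most of the 7. It was 76.01% in the WT and 90.61% in the knockout library for Klf1, 62.67% and 75.18% for Gata1, and 74.12% and 81.99% for Epb42. Rhag was covered over 74.18% in each library, although it had more reads in the knockout. Alas2 went from 96.71% to 91.07%. Coverage of Slc4a1 (98.13% and 98.04%) and Fech (88.45% and 88.87%) hardly differed.

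The ratios were also set beside those of all genes. On the scale of log2(RPKM + 1), only Epb42, Slc4a1, Alas2 and Fech reached an RPKM of 1 in a library. Epb42 passed through the knockout library, where it was higher. None of the 4 was at least 1.5-fold higher, as 1.52% of 12329 genes were, and none at least 1.5-fold lower, as 1.44% were. With a limit of 1.2-fold, none was higher (10.1% of genes) and 1, Alas2, was lower (10.4%). Without a pseudocount, over 14445 genes with at least 20 reads in a library, Klf1, Gata1 and Rhag were at least 1.5-fold higher (6.9% of genes) and none of the 7 was at least 1.5-fold lower (5.08%). Gata1, Rhag and Epb42 had an interval above 1 (27.5% of genes) and Alas2 one below 1 (29.1%), so an interval clear of 1 was no rare property.

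Low genes as a whole leaned toward the knockout library. Among the 2713 genes with a mean of 25 to 200 reads, a band that holds Klf1, Gata1, Rhag and Epb42, 21% were at least 1.5-fold higher, against 3 of these 4. The median log2 read ratio of the band was 0.12, with 1557 genes above 0 and 1156 below. The sum of these 4 genes was formed after their values were seen, and each was higher, so its direction follows from that choice. Together they had 241 reads in the WT and 375 in the knockout library, 1.59-fold higher (1.34 to 1.87). Whether the lean of low genes has a part in that ratio was not tested.

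**Figure D2:**
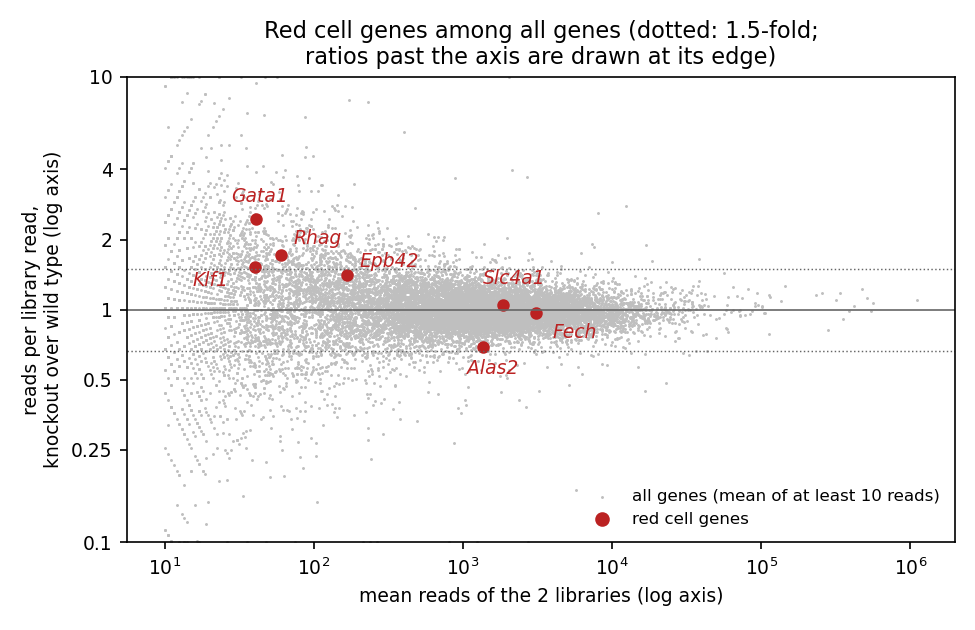
Ratio of reads per library read (knockout over WT, log axis) against the mean reads of both libraries (log axis) for all genes with a mean of at least 10 reads (grey) and the red cell genes (red); dotted lines mark 1.5-fold. Gata1, Rhag, Klf1 and Epb42 sit at the left among widely scattered low genes, and Alas2 lies just inside the lower line.

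Summed over all 7 genes, reads went from 6847 in the WT library to 6346 in the knockout, 1.06-fold lower (1.02 to 1.10). The direction rests on 1 gene: without Alas2 the sum was 1.02-fold higher, and without the X-linked Alas2 and Gata1 it was also 1.02-fold higher. The members' median log2 read ratio was 0.49, with 5 of 7 above 0. Over the 14445 genes with at least 20 reads the median was 0.00, with 7179 above 0. In the band of low genes, which holds 4 of the 7, it was 0.12, with 1557 of 2713 above 0. The members' sum and median thus differ in sign, because the genes with the most reads were level or lower.

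Ratios between genes of 1 library do not depend on the scaling of libraries. Per 1000 reads of Slc4a1 there were 889 reads of Alas2 in the WT and 586 in the knockout library, a ratio of 0.659 (0.596 to 0.730). Klf1, Gata1, Rhag and Epb42 together had 131 and 199 reads per 1000 of Slc4a1, 1.51-fold more in the knockout (1.27 to 1.81). That group was formed after its values were seen, so the direction follows from the choice. Against the embryonic globins Hbb-y, Hbb-bh1 and Hba-x, which primitive red cells make, Slc4a1 had 21.9 reads per 1000 in the WT and 24.5 in the knockout library (ratio 1.12, 1.05 to 1.19). Alas2 had 19.4 and 14.3 (0.738, 0.682 to 0.797). Set against adult-type globin reads the direction turned, with 30.5 reads of Alas2 per 1000 in the WT and 41.4 in the knockout library, because those globins were lower still.

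Globin levels stand beside these values as the main product of red cells. The embryonic genes were close to level: Hbb-y went from 2077 to 1911 RPKM and Hba-x from 896 to 862, while Hbb-bh1 went from 41.3 to 48.1. Adult-type genes were lower in the knockout library: Hbb-bs went from 1012 to 489 RPKM, Hbb-bt from 138 to 52.5, Hba-a1 from 393 to 230 and Hba-a2 from 347 to 196. Summed reads were 1.07-fold lower (1.06 to 1.08) for the embryonic and 1.97-fold lower (1.94 to 1.99) for the adult-type genes. The adult-type genes share 59.4% to 91.0% of their 31-base words with other genes, so uniquely mapped reads measure each copy in part. The ratio of Alas2 lay between these sums, and that of Slc4a1 lay above both.

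**Figure D3:**
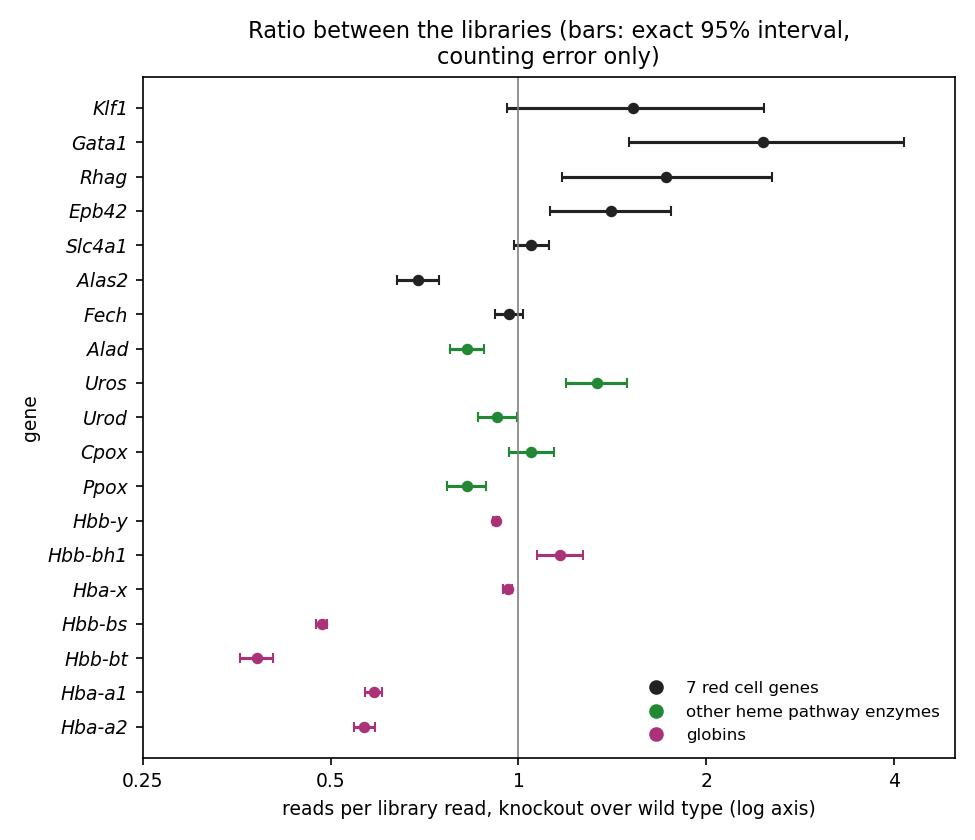
Ratio of reads per library read, knockout over WT (log axis), for the 7 red cell genes (black), other enzymes of heme synthesis (green) and 7 globins (purple); bars are exact 95% intervals for counting error. The 4 adult-type globins lie lowest, between 0.381 and 0.586, Alas2 at 0.691, and Gata1 highest at 2.46.

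Between Alas2 and Fech, the heme pathway passes through enzymes that most tissues share. Alad, which joins aminolevulinate into porphobilinogen and was the most abundant of those listed in the WT library, was 1.21-fold lower (1.14 to 1.29), from 31.5 to 26.1 RPKM. Uros, which closes the ring, went the other way, from 6.39 to 8.53 RPKM, 1.33-fold higher (1.19 to 1.49). Urod went from 26.2 to 24.2 RPKM and Cpox, the coproporphyrinogen oxidase, from 9.29 to 9.74. Ppox, which makes protoporphyrin, was 1.21-fold lower (1.13 to 1.30), with 17.4% of its 31-base words also found in other genes' transcripts. Of the 7 enzymes listed, Alas2 and Fech included, 5 were below 0 and 2 above on the log2 scale and none was past 1.5-fold, with a median of -0.11, beside -0.01 over the 12329 measured genes. Alas1, the synthase of other tissues, went from 24.1 to 20.9 RPKM, 1.16-fold lower (1.10 to 1.22). Alas2 reads per Alas1 read were still lower in the knockout library, at 0.800 of the WT ratio (0.728 to 0.878).

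In this and the following lists, counts above 0, below 0 or past 1.5-fold and medians are on the scale of log2(RPKM + 1), which understates low genes, while folds given for single genes are read ratios. Over the 12329 measured genes, 5943 were above 0 and 6386 below, with 1.52% past 1.5-fold higher and 1.44% past 1.5-fold lower. Genes that feed heme synthesis, move heme or break it down went both ways, with 7 of 17 measured members above 0, 10 below and a median of -0.04. The most abundant, Tmem14c, a mitochondrial porphyrin carrier, was 1.24-fold higher (1.16 to 1.32). Hmox1, the inducible heme oxygenase that degrades heme, went from 14.4 to 22.2 RPKM, 1.54-fold higher (1.41 to 1.67), and was the only measured member past 1.5-fold on the log2 scale. Fam210b, a mitochondrial protein of erythroid iron use, was 1.25-fold lower (1.11 to 1.40).

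Other membrane and skeleton genes of the red cell went both ways. Of 20 genes 18 were measured, with 7 above 0 and 11 below and a median of -0.04. On this scale only Kel was past 1.5-fold higher, as 1.52% of the 12329 measured genes were. Kel, the Kell blood group protein, had 81 reads (0.808 RPKM) in the WT library and 211 (2.14) in the knockout, 2.65-fold higher (2.04 to 3.47). Tmod1, a tropomodulin that caps actin filaments in red cells and in heart muscle, had the lowest log2 ratio of those measured and was 1.12-fold lower (1.08 to 1.15), from 67.7 to 60.6 RPKM. Bsg, basigin, the most abundant and made in most tissues, was within 1.06-fold. Named after their values were seen, Ermap, an erythroblast membrane protein, was 1.91-fold higher (1.57 to 2.32) and Add2, the beta adducin of the skeleton, 1.78-fold higher (1.41 to 2.26) by reads, with log2 ratios of 0.52 and 0.46 that stay under 1.5-fold. Kel, Ermap and Add2 passed the RPKM limit only through the knockout library, and Rhd only through the WT library, which sets their direction. The genes of this list below 1 RPKM in both libraries, named after their values were seen, were lower. Slc14a1, the urea transporter, had 47 and 24 reads, 1.92-fold lower (1.15 to 3.29). Icam4, an adhesion protein, had 19 and 4, 4.66-fold lower (1.55 to 18.8). Of the words of Icam4, 97.0% also occur in other genes' transcripts, so uniquely mapped reads measure only a small part of it. For Tmod1 that share is 40.2%.

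Most measured partners of GATA1 and KLF1 were close to level. Of 18 genes 14 were measured, 8 above 0 and 6 below, none past 1.5-fold, with a median of 0.02. Ldb1, the adaptor that joins GATA1 complexes, was the most abundant and went from 85.7 to 84.1 RPKM. Nfe2, a leucine zipper factor of globin control, had the highest ratio at 1.27 (0.923 to 1.75), and E2f2, which paces the last divisions of erythroblasts, was 1.32-fold lower (1.16 to 1.51). Nfe2 passed the RPKM limit only through the knockout library, where it was higher. The other 4 partners, below 1 RPKM in both libraries and named after their values were seen, went both ways. Gfi1b, a repressor of red cells and megakaryocytes, had 18 reads in the WT and 40 in the knockout library, 2.26-fold higher (1.27 to 4.19), and Ikzf1, a lymphoid and erythroid zinc finger factor, 103 and 130, a ratio of 1.29 (0.985 to 1.68). Runx1, a factor of blood stem cell emergence, had 133 and 86 reads, a ratio of 0.659 (0.496 to 0.870), and Myb, a factor of progenitors, 82 and 58, a ratio of 0.721 (0.506 to 1.02).

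The remaining erythroid list had 9 of 15 genes measured, 5 above 0 and 4 below, and a median of 0.01. Of these, Trim10 passed the RPKM limit only through the WT library, which sets its direction. Without the RPKM limit the median of the list was 0.060. Prdx2, a peroxidase abundant in red cells, went from 233 to 219 RPKM, with 31.7% of its words found in other genes too. Car2, carbonic anhydrase 2, was 1.57-fold higher (1.41 to 1.75). Mkrn1, a ubiquitin ligase gene, was 1.41-fold lower (1.29 to 1.53).

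**Figure D4:**
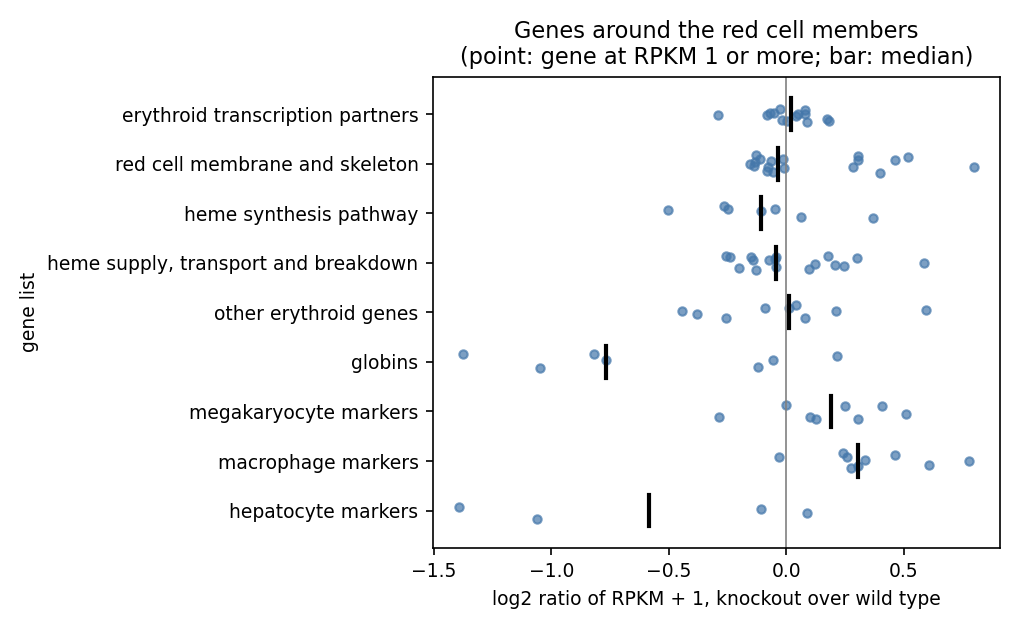
Log2 ratio of RPKM + 1 (knockout over WT) for each gene with an RPKM of at least 1 in a library, by list; black bars are list medians. The globin median lies at -0.77, the macrophage median at 0.31, and the heme synthesis median at -0.11.

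The most abundant relative of each gene that has one in the lists stood above it in both libraries. Of the GATA factors, Gata1 was the scarcest: Gata4 and Gata6, factors of heart muscle, went from 82.7 to 71.9 and from 61.2 to 52.2 RPKM. Gata5, of endocardium, went from 12.8 to 18.1, Gata2, of blood progenitors and endothelium, from 6.19 to 6.61, and Gata3 from 1.77 to 1.45. Klf6 was the most abundant relative of Klf1, at 19.8 and 19.5 RPKM. Tgm2, a tissue transglutaminase of the family of Epb42, stood at 131 and 126 RPKM, with 20.3% of its words shared. Slc4a2, the widely expressed anion exchanger, went from 16.2 to 14.0 RPKM, above Slc4a1 in both libraries, and Rhd, the partner of Rhag, from 1.12 to 0.934.

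Markers of other cells that carry Gata1 or come with blood are given for the same libraries. Megakaryocyte markers, cells that also use Gata1, had a summed level of 19.9 RPKM in the WT and 25.1 in the knockout library over 11 of 11 listed genes, none at 0, and 6 of 8 measured members were above 0 (median 0.19). Pf4, platelet factor 4, was 1.38-fold higher (1.11 to 1.72), Gp9, a platelet glycoprotein, 1.79-fold higher (1.18 to 2.76), and Gp1bb, with 92.8% of its words shared, 1.498-fold lower (1.06 to 2.13). Gp1bb passed the RPKM limit only through the WT library, and Treml1 only through the knockout library. Of the mast cell markers only Kit was measured, at 5.50 and 5.96 RPKM; Fcer1a and Tpsb2 are not listed in either table and Ms4a2 had 0 reads in the WT library. The summed mast cell level was 5.65 and 6.05 RPKM, nearly all of it from Kit. Named after its values were seen, Cpa3 had 9 reads in the WT and 3 in the knockout library, a ratio of 0.340 (0.0591 to 1.36). Ms4a2 had 4 reads in the knockout library.

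Macrophage markers, of cells that also ingest red cells, were at 74.0 and 97.6 RPKM summed over 10 of 10 listed genes, with 8 of 9 measured members above 0 and none at 0. Fcgr3, an Fc receptor, was 1.92-fold higher (1.60 to 2.30), Lyz2, lysozyme, 1.40-fold higher (1.29 to 1.53), and C1qa, a complement subunit, had a ratio of 0.976. Of the words of Lyz2, 32.8% also occur in other genes' transcripts. Hepatocyte markers, of the organ that makes definitive red cells at this stage, were at 6.81 and 3.49 RPKM over 9 of 10 listed genes. Afp went from 145 to 4 reads and Alb from 88 to 0, a count that allows up to 3 reads. Fga went from 9 reads to 0 and Hnf4a from 4 to 0, the latter close to that limit. Apoa2 had 39 and 42 reads, Ahsg 79 and 68, and Apoh 4 and 4. Alb, Fga, Hnf4a, Ahsg and Apoh were named after their values were seen. Of the 4 measured members 3 were below 0. Among them, Alb and Afp passed the RPKM limit only through the WT library, which sets their direction. Endothelial markers were at 206 and 208 RPKM over 5 of 5 genes, none at 0, with Emcn 1.14-fold higher and Cdh5, the most abundant, at a ratio of 0.852. The part of these cells in the ratios of the 7 genes was not tested.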

How the data were processed

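The series holds 2 libraries, 1 per genotype, placed in groups by the genotype in their labels. Reads were aligned with Bowtie 0.12.2 to mm9, per the submitters' processing notes. Which annotation, filters and strand setting were used is not given in the sources used here. The deposited counts are uniquely mapped reads per Ensembl gene, per the file headers, and the authors' RPKM scales them by listed length and by the summed counts. The covered share of the length is the authors' value as deposited. Genes absent from 1 table were set to 0 reads there.

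Symbols were matched on Ensembl identifier for 17196 of 17646 genes. Values are the ratio of reads per library read with exact conditional binomial (Clopper-Pearson) intervals, exact conditional intervals for ratios between genes, and log2 ratios of RPKM + 1 where either library reached an RPKM of 1; the pseudocount understates ratios of low genes. No test across genes was run, since the spread within a genotype cannot be estimated from 1 library. The interval was tested on simulated data that held counting error alone. Such data cannot speak to PCR copies or to spread between embryos. Python 3.11.15, numpy 2.4.6, pandas 2.3.3, scipy 1.17.1 and matplotlib 3.10.9 were used. Exon overlap and shared 31-base words came from GENCODE on GRCm38, so no mm9 coordinates are given.

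The members and lists were chosen with earlier results of these data known. A few genes of the lists are not reported here and were left out of their counts and medians. Genes named are the 7 members, the listed heme pathway enzymes, globins with an RPKM of at least 1, and per list the most abundant gene and those with the highest and lowest log2 ratio; of each list of relatives, the most abundant gene and every GATA factor with an RPKM of at least 1. Further genes, named after their values were seen, are marked as such. Genes named only for an overlap, for the RPKM limit or for absent reads carry no mark. Likeness to a member's pattern was not ranked, because 2 libraries give 1 ratio per gene. Alternatives were 4 scalings, pseudocounts of 0.1 and 5, other RPKM minimums, limits of 1.2-fold and 2-fold, and leaving out members.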

Additional observations from a re-analysis of the deposited data

How the results depend on the processing

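No paired analysis was possible because each genotype has 1 library. The 4 other scalings raised every ratio by at most 1.01-fold, and no ratio of a single member left its counting interval under any of them. The summed ratio of the 7 genes (0.944) turned to 1.02 without Alas2 and to 1.02 without the X-linked members, and was 0.906 without Slc4a1. The count of members at least 1.5-fold lower went from 0 to 1 with a limit of 1.2-fold. Without a filter on RPKM the medians of the lists became -0.50 for globins, -0.11 for hepatocyte markers, 0.055 for relatives of Epb42 and 0.0032 for relatives of Slc4a1, the last from -0.09 and so turned. The hepatocyte median (-0.58) was -1.87 with a pseudocount of 0.1 and -0.16 with 5, and that of the relatives of Epb42 0.11 with 5. With an RPKM of at least 5 the relatives of Klf1 had a median of -0.20 and those of Slc4a1 one of -0.19. The cardiomyocyte median was -0.042 with reads outside mitochondrial genes and -0.043 with globin reads left out as well. The remaining causes were not tested. Read numbers limit Klf1, Gata1 and Rhag most, at 24 to 76 reads in a library.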

Other observations

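Further genes of red cells, named after their values were seen, also went both ways. Tfrc, the transferrin receptor through which erythroblasts and other dividing cells take up iron, went from 22.6 to 17.1 RPKM, 1.32-fold lower (1.26 to 1.38). Slc25a38, the mitochondrial carrier that supplies glycine to Alas2, was 1.21-fold lower (1.07 to 1.37), and Slc25a37, the mitochondrial iron importer mitoferrin 1, 1.11-fold lower (1.04 to 1.18). Of the skeleton genes, Ank1, which anchors band 3, was 1.30-fold higher (1.205 to 1.39), while Sptb, beta spectrin, was 1.09-fold lower (1.04 to 1.14). Epor, the erythropoietin receptor, had 165 reads in the WT and 199 in the knockout library, a ratio of 1.23 (0.994 to 1.52). Trim10, an erythroid ring finger gene, was 1.43-fold lower (1.05 to 1.96), and passed the RPKM limit only through the WT library. Other genes of the lists, also named after their values were seen, were higher. The X-linked Xk was 1.34-fold higher (1.16 to 1.53) and Gypc 1.36-fold higher (1.003 to 1.85). Below 1 RPKM in both libraries, Tfr2 had 4 and 16 reads and Pklr 16 and 34, both with an interval above 1. Car1 had 0 and 8 reads, while Hemgn had 39 and 31. Of the measured genes, 7 were above 0 and 11 below in the membrane and skeleton list, and 5 and 4 in the remaining erythroid list.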
